A study of Mus musculus with 11 samples.

Results

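The 10 genes described here are the peroxisome proliferator-activated receptors Ppara, Ppard and Pparg, the estrogen-related receptors Esrra, Esrrb and Esrrg, the coactivators Ppargc1a and Ppargc1b, and the retinoid X receptors Rxra and Rxrg. They were chosen by name as the regulators of cardiac fuel metabolism, and all 10 were among the 22608 genes of the count table and among the 11319 genes that passed the filter on low counts. PPARs are nuclear receptors that are activated by fatty acids and their derivatives, and they bind DNA as heterodimers with an RXR. ERRs are orphan receptors of the same superfamily, with no settled natural ligand, and their activity depends on the PGC-1 coactivators, which are encoded by Ppargc1a and Ppargc1b. In the adult heart, PPARα drives fatty acid uptake and oxidation, while ERRα and ERRγ drive genes of the tricarboxylic acid cycle and of oxidative phosphorylation.

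Bulk RNA from the hearts of 11 male mice was sequenced. CD mice carry a heterozygous deletion (the complete deletion) of the interval from Gtf2i to Fkbp6 and model Williams-Beuren syndrome, and WT mice were their littermates on a C57BL/6J background. Mice of both genotypes, 8 to 16 weeks old, received vehicle (VEH) or JZL184 at 8 mg/kg by intraperitoneal injection each day for 10 days. JZL184 inhibits monoacylglycerol lipase, the main enzyme that degrades the endocannabinoid 2-arachidonoylglycerol. There were 2 WT VEH, 3 CD VEH, 3 WT JZL184 and 3 CD JZL184 mice, and the mice of the table are named here by the letter of their column. For the vehicle groups the treatment field of the sample labels reads untreated, whereas their titles name a vehicle.

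Total counts per mouse lay between 69660329 and 92251550, and transcripts of the mitochondrial genome took 39.4% to 41.2% of them in WT VEH, 43.5% to 44.7% in CD VEH, 45.0% to 46.6% in WT JZL184 and 36.4% to 40.1% in CD JZL184. In the check of the genotype, 5 genes of the deleted interval (Gtf2i, Baz1b, Limk1, Eif4h and Clip2) were lower in CD mice in both treatments, with log2 fold-changes from -1.44 to -0.58 under vehicle and from -1.46 to -0.58 under JZL184. No gene of the table checks the treatment label in the same way. Summed levels of 6 cardiomyocyte markers were 38577 to 38702 CPM in WT VEH, 30540 to 33835 in CD VEH, 26140 to 35264 in WT JZL184 and 35386 to 37863 in CD JZL184, so heart muscle RNA was present at a high level in every mouse. CPM are counts relative to the library total, scaled by TMM factors, and all values below are on this scale unless stated. A DEG is a gene with an adjusted p under 0.05 in edgeR's quasi-likelihood test (Benjamini-Hochberg over the 11319 genes), and log2 fold-changes are given with their standard error (SE). In bulk tissue, fewer cells of a type and less RNA per cell cannot be told apart.

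The 3 PPAR genes differed in level and in the direction of their changes. The proximal sequences of Ppara and Pparg are shown because these genes had the largest changes of the family, in opposite directions. Of the 10 genes, 9 matched the RefSeq promoter table (GRCm38.p6), with 17 start sites in all, and each window runs from 250 bases before to 50 bases after a start. The core site AGGTCA of this receptor family was searched on both strands and is in capitals. The Ppara window is chr15:85735526-85735825. Pparg has 3 windows, chr6:115360894-115361193, chr6:115362099-115362398 and chr6:115421816-115422115, and the first 2 are printed because they hold the core site. All 4 windows are on the plus strand.
Ppara: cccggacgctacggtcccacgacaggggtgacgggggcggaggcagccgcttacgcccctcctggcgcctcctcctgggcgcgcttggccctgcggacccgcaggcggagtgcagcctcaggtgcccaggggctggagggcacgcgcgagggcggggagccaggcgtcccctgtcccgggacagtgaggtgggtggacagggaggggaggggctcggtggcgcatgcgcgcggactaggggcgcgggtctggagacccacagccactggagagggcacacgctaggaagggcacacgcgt
Pparg, first start: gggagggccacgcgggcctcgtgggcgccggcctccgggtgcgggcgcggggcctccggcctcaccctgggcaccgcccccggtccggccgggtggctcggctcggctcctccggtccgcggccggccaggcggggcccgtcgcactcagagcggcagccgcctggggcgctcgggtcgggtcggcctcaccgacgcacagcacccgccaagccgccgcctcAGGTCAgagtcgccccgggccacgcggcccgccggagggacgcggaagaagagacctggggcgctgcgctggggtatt
Pparg, second start: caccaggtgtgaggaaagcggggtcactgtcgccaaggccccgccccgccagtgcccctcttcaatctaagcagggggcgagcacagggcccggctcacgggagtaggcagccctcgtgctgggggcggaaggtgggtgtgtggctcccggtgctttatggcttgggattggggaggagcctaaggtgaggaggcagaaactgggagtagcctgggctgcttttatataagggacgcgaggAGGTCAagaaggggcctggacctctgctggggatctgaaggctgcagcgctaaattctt
The Ppara window and the third Pparg window held no core site, and the first 2 Pparg windows held 1 each, at positions -28 and -9 from the start. Over the 17 windows, 4 held a core site (23.5%), against 16.3% of all 32851 RefSeq promoters. The other 2 were a second start of Rxra, with 2 core sites, and a second start of Rxrg, with 1. The longer ERR core site TNAAGGTCA was in 0 of the 17 windows and in 1.28% of all promoters, and a direct repeat of AGGTCA with 1 base between the copies was in 0 of the 17 and in 0.0396% of all. These matches describe the letters in the windows. The table gives 1 count per gene, so the starts of Pparg were not measured apart.

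Levels between genes were compared per kilobase of exon (the union of a gene's annotated exons). Over the 11 mice, Esrra was highest at 23.9 ± 2.37 CPM per kilobase (SD, n = 11), followed by Rxrg at 21.4 ± 1.77 and Ppargc1a at 13.1 ± 3.25. Rxra reached 9.31 ± 0.774, Ppara 7.24 ± 2.23 and Esrrg 5.02 ± 1.14 CPM per kilobase. The lowest levels were those of Esrrb (3.59 ± 0.559), Pparg (3.24 ± 0.764), Ppargc1b (2.88 ± 0.654) and Ppard (2.46 ± 0.290). At the top, Esrra exceeded Rxrg in 10 of 11 mice, but in only 1 of 2 WT VEH mice, where the means were 23.1 and 23.9. Rxrg exceeded Ppargc1a in 11 mice and Ppargc1a exceeded Rxra in 10. Lower down, Ppara exceeded Esrrg and Esrrg exceeded Esrrb in 11 mice each, and Ppargc1b exceeded Ppard in 9. The other 3 pairs of neighbours also changed order with the group. Esrrb was above Pparg in every WT VEH mouse (3.94 to 4.02 against 2.30 to 2.58 CPM per kilobase) and every CD JZL184 mouse (4.04 to 4.52 against 2.41 to 2.79), and below it in every WT JZL184 mouse (2.96 to 3.25 against 3.74 to 4.70). In CD VEH the ranges of this pair overlapped. Pparg was above Ppargc1b in all CD VEH and WT JZL184 mice and below it in all mice of the other 2 groups. Rxra was above Ppara in every CD VEH mouse (8.28 to 9.08 against 5.66 to 6.47) and every WT JZL184 mouse (8.04 to 9.55 against 4.19 to 5.47), but in only 1 of 2 WT VEH and 1 of 3 CD JZL184 mice. The last place of Ppard depended on the length used, since its annotated exons add up to 7514 bases whereas its longest transcript has 3726. With the longest transcript, Ppard stood at 4.95 CPM per kilobase, in place 8, above Pparg at 4.50 and Ppargc1b at 3.14.

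**Figure D1:**
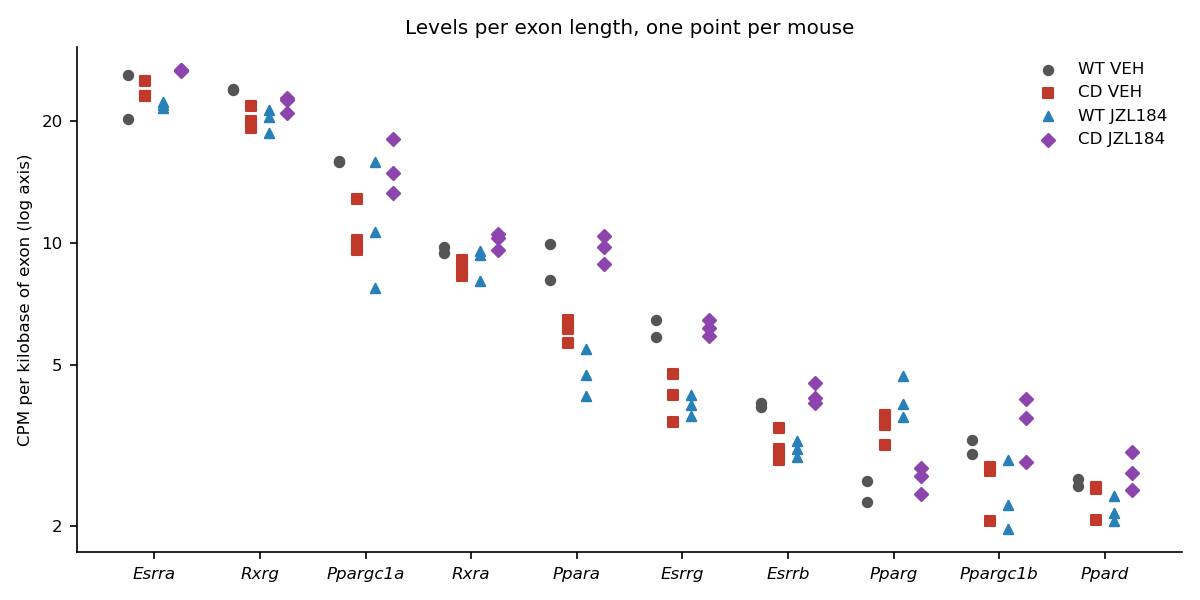
CPM per kilobase of exon (log axis) of each regulator, with 1 point per mouse and groups side by side. Esrra (mean 23.9) and Rxrg (21.4) sit at the top, and the points of Ppara spread wider than those of its neighbours because CD VEH and WT JZL184 mice lie below the other 2 groups.

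The share of each member within its family was taken from the same levels. Ppara gave 64.1% ± 2.76 (SD, n = 2) of the summed PPAR level per kilobase in WT VEH, 51.0% ± 2.58 (n = 3) in CD VEH, 43.0% ± 4.80 (n = 3) in WT JZL184 and 64.3% ± 3.14 (n = 3) in CD JZL184. The share of Pparg ran the other way, with 17.4%, 29.3%, 37.2% and 17.5% in the same order, while that of Ppard stayed between 18.3% and 19.8%. The ratio of Ppara to Pparg per kilobase was therefore 3.68 ± 0.229 in WT VEH, 1.75 ± 0.248 in CD VEH, 1.18 ± 0.252 in WT JZL184 and 3.71 ± 0.528 in CD JZL184. In WT JZL184 this ratio reached 0.892 in the lowest mouse, in which Pparg was the higher of the pair. With the longest transcript as length, the mean ratio was 2.98 in WT VEH, 1.42 in CD VEH and 0.951 in WT JZL184, with 2.70 to 3.49 in the CD JZL184 mice, so that in WT JZL184 the mean then lay below 1. The share of Ppard was then 27.6% to 28.8%, and that of Ppara 54.0%, 41.6%, 34.6% and 54.2%. Esrra held 69.3% to 76.4% of the summed ERR level in the group means, Ppargc1a 80.9% to 83.5% of the PGC-1 level, and Rxrg 68.5% to 71.4% of the level of the RXR pair.

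To address whether the deletion and JZL184 altered these regulators, each gene was followed across the 4 groups. Ppara, the PPAR that predominates in oxidative tissues, was at 38.0 and 31.0 CPM in WT VEH, at 23.5, 24.8 and 21.7 in CD VEH, at 21.0, 16.1 and 18.1 in WT JZL184, and at 37.4, 34.1 and 39.9 in CD JZL184. All CD VEH and WT JZL184 mice lay below all mice of the other 2 groups. Ppara fell in CD VEH versus WT VEH with a log2 fold-change of -0.57 (edgeR adjusted p = 0.00657, SE 0.12) and rose in CD JZL184 versus CD VEH by 0.67 (edgeR adjusted p = 0.00235, SE 0.11). In WT mice JZL184 went with the opposite change, a log2 fold-change of -0.91 (edgeR adjusted p = 0.00128, SE 0.12), which is a level of 0.533 times that under vehicle (95% interval 0.447 to 0.636). Of the 6 cardiomyocyte markers, 3 fell in CD VEH versus WT VEH, 2 rose and 1 fell in CD JZL184 versus CD VEH and 3 fell in WT JZL184 versus WT VEH. Over all tested genes 15.4% fell in the first, 16.8% rose and 17.0% fell in the second and 14.0% fell in the third. The part of these markers in the change of Ppara was not tested.

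Pparg, the receptor that directs adipocyte differentiation and that endothelial cells and macrophages also use, moved in the opposite direction to Ppara. Its level was 7.62 and 6.79 CPM in WT VEH, 11.1, 9.37 and 10.5 in CD VEH, 11.8, 13.9 and 11 in WT JZL184, and 8.24, 7.87 and 7.11 in CD JZL184. Every CD VEH and WT JZL184 mouse was above every mouse of the other 2 groups. The log2 fold-change of Pparg was 0.52 (edgeR adjusted p = 0.00836, SE 0.11) in CD VEH versus WT VEH, -0.41 (edgeR adjusted p = 0.0101, SE 0.10) in CD JZL184 versus CD VEH and 0.76 (edgeR adjusted p = 0.00232, SE 0.11) in WT JZL184 versus WT VEH. Markers of other cell types moved with Pparg. The summed CPM of 6 endothelial markers was 593 to 600 in WT VEH, 740 to 806 in CD VEH, 887 to 914 in WT JZL184 and 579 to 657 in CD JZL184, and that of 5 macrophage markers was 105 to 112, 146 to 184, 136 to 228 and 95.1 to 112. Of the 6 endothelial markers, 4 rose in CD VEH versus WT VEH, 5 fell in CD JZL184 versus CD VEH and 6 rose in WT JZL184 versus WT VEH, and all 5 macrophage markers changed in the same directions. Over all tested genes 15.0%, 17.0% and 15.4% were called in those directions. Of 3 tested smooth muscle markers, Myh11 (log2 fold-changes 0.70, -0.65 and 1.28) and Tagln (0.70, -0.85 and 1.15) were called in the same directions in these 3 comparisons, and Acta2 was not called. The summed smooth muscle markers were at 78.7 to 89.6 CPM in WT VEH, 91.1 to 100 in CD VEH, 120 to 159 in WT JZL184 and 57.5 to 73.6 in CD JZL184. Of 5 fibroblast markers, 2 (Dcn and Tcf21) rose in CD VEH versus WT VEH and fell in CD JZL184 versus CD VEH, and 3 rose in WT JZL184 versus WT VEH. Their sum was 529 to 552, 630 to 703, 676 to 830 and 496 to 547 CPM in the same order of groups. The 5 blood markers, mainly haemoglobin genes, summed to 18832 CPM in CD VEH mouse A and to between 1419 and 5512 in the other 10 mice. All 5 fell in CD JZL184 versus CD VEH, while CD VEH versus WT VEH gave a median of 1.77 on the log2 scale (4 of 5 with an unadjusted p under 0.05) and WT JZL184 versus WT VEH one of 0.84 (0 of 5), with no blood marker past edgeR's adjusted threshold in either. The blood values of the comparisons with CD VEH rest on CD VEH mouse A, which WT JZL184 versus WT VEH does not contain. Without this mouse the medians were -0.43 in CD JZL184 versus CD VEH and 0.12 in CD VEH versus WT VEH. In each, 0 of 5 markers then had an unadjusted p under 0.05 in edgeR. The JZL184 log2 fold-change in CD minus that in WT still had a median of -1.30, with 4 of 5 markers called (lowest edgeR adjusted p = 0.0170). Of all genes 22.6% were then called above 0 and 23.0% below. Without CD VEH mouse A the log2 fold-change of Pparg was 0.46 in CD VEH versus WT VEH (edgeR adjusted p = 0.0329) and -0.36 in CD JZL184 versus CD VEH (edgeR adjusted p = 0.0493). The part of these cell types in the change of Pparg was not tested. The defining adipocyte markers were low, since Adipoq reached at most 0.294 CPM, Plin1 0.356, Cidec 0.331, Lep 0.0470, Retn 0.282 and Cfd 1.09 in any mouse. Of these 6, Adipoq, Cidec, Cfd and Retn were nonetheless higher in every CD VEH mouse than in both WT VEH mice, for Cfd with 0.317 to 1.09 CPM in CD VEH versus 0.0372 to 0.0435 in WT VEH. In the WT VEH mice these genes had at most 3 counts each, which is 0.0435 CPM in mouse C and 0.0372 in mouse D. How many genes of the whole table separated these groups likewise was not counted. In CD JZL184 versus CD VEH the groups overlapped for all 6, and in WT JZL184 versus WT VEH they overlapped for all but Cfd (0.0651 to 0.242 CPM in WT JZL184). Their part in the change of Pparg was not tested either. Of the 7 adipocyte markers only Fabp4, a fatty acid binding protein of adipocytes that capillary endothelium also makes, passed the filter, at 264 CPM in WT VEH, 449 in CD VEH, 504 in WT JZL184 and 283 in CD JZL184 (group means).

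Ppard, the PPAR expressed in most tissues, had the smallest fold-changes of the family. It lay at 18.9 and 19.7 CPM in WT VEH, 15.6 to 18.8 in CD VEH, 15.5 to 17.9 in WT JZL184 and 18.5 to 22.9 in CD JZL184, and the CD VEH and CD JZL184 ranges overlapped. Among the comparisons of 2 groups it was a DEG only between the JZL184 groups, with a log2 fold-change of 0.32 in CD against WT (edgeR adjusted p = 0.0202, SE 0.09). In CD JZL184 versus CD VEH its log2 fold-change was 0.22 (edgeR adjusted p = 0.0827). The call between the JZL184 groups was lost without WT JZL184 mouse A or B or CD JZL184 mouse C.

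**Figure D2:**
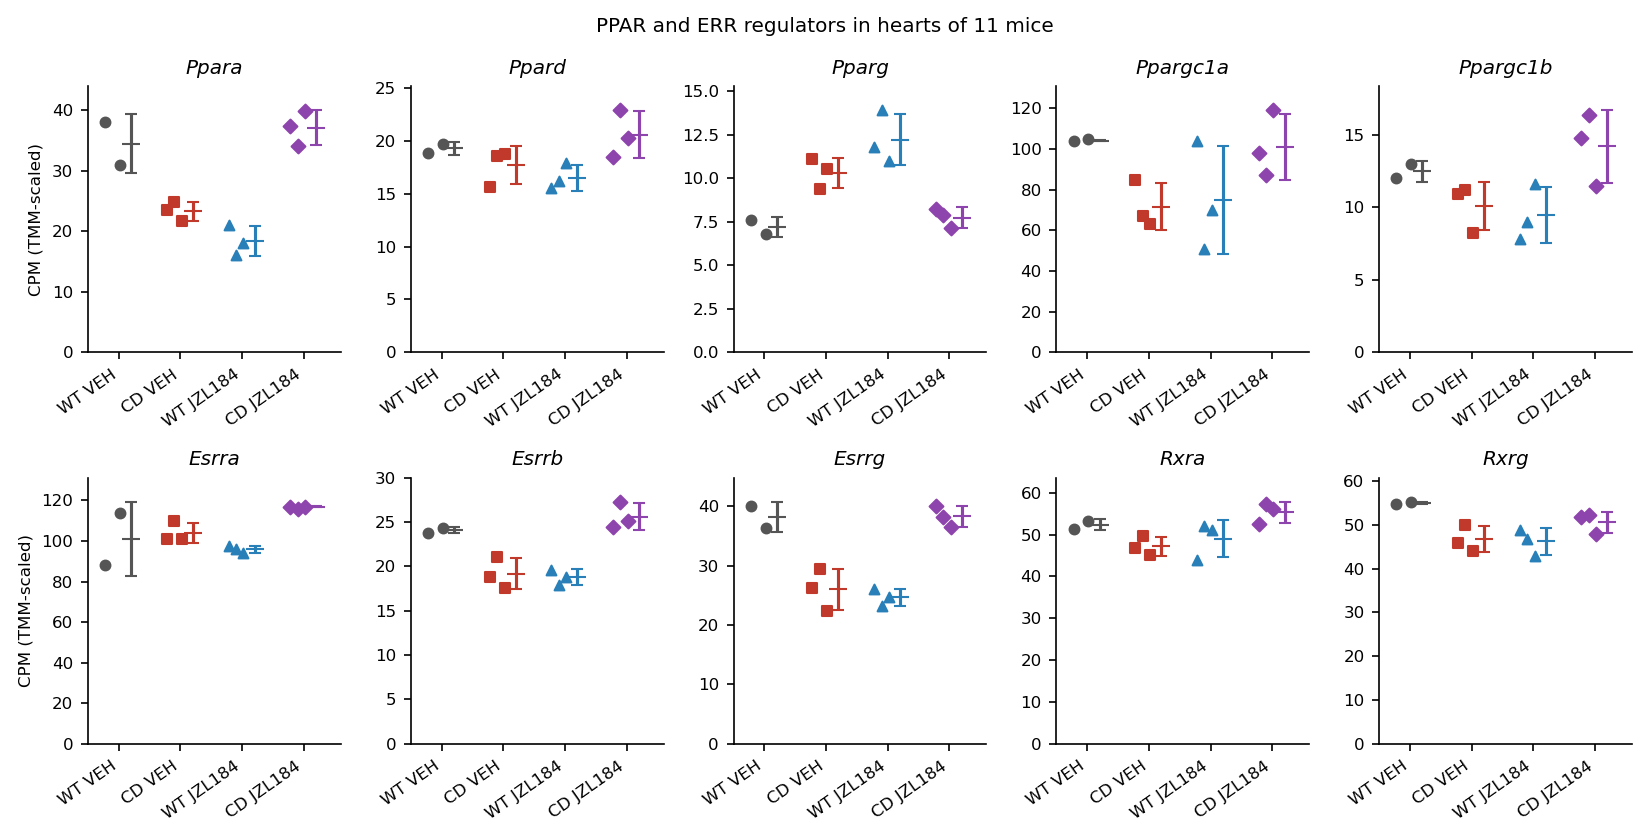
TMM-scaled CPM of each regulator in each of 11 mice, with the group mean and SD (n = 2 in WT VEH, n = 3 in the other groups) beside the points and axes from 0. Ppara, Esrrb and Esrrg are lower in CD VEH and WT JZL184 than in WT VEH and CD JZL184, and Pparg is higher in the same mice.

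Among the ERR genes, the 2 less abundant ones were called in 4 comparisons of 2 groups each and the most abundant one in 1. Esrrg, an ERR of oxidative muscle, was at 40.0 and 36.4 CPM in WT VEH, at 26.2, 29.4 and 22.4 in CD VEH, at 26.1, 23.2 and 24.7 in WT JZL184, and at 40.1, 38.2 and 36.5 in CD JZL184. The highest CD VEH mouse was below the lowest WT VEH mouse, and the JZL184 groups were apart in the same way with CD above WT. The log2 fold-change of Esrrg was -0.55 (edgeR adjusted p = 0.00429, SE 0.10) in CD VEH versus WT VEH, 0.56 (edgeR adjusted p = 0.00245, SE 0.09) in CD JZL184 versus CD VEH and -0.63 (edgeR adjusted p = 0.00264, SE 0.10) in WT JZL184 versus WT VEH.

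Esrrb, best known for its part in early embryonic and stem cells, was measured at 23.8 and 24.3 CPM in WT VEH, 18.8, 21.1 and 17.6 in CD VEH, 19.6, 17.9 and 18.8 in WT JZL184, and 24.4, 27.3 and 25.1 in CD JZL184. Its groups were apart in the same order as those of Esrrg. The log2 fold-changes were -0.33 (edgeR adjusted p = 0.0134, SE 0.08), 0.42 (edgeR adjusted p = 0.00301, SE 0.07) and -0.36 (edgeR adjusted p = 0.0100, SE 0.08) in the same 3 comparisons. Esrra, which encodes ERRα, was at 88.4 and 114 CPM in WT VEH, 101 to 110 in CD VEH, 94.1 to 97.6 in WT JZL184 and 116 to 117 in CD JZL184. The WT VEH mice alone spanned nearly the whole range of the gene. Esrra was a DEG only in CD JZL184 versus WT JZL184 (log2 fold-change 0.28, edgeR adjusted p = 0.0184, SE 0.08), a call that was lost without WT JZL184 mouse D or CD JZL184 mouse E, and its 95% interval in CD VEH versus WT VEH was -0.16 to 0.24. Its exons share 73 bases with Trmt112 on the opposite strand and 91 bases with Mir6990 on its own strand, and whether counting used strand was not given in the sources used here.

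The PGC-1 coactivators link these receptors to cold, exercise and fasting signals. Ppargc1a was at 104 and 105 CPM in WT VEH, at 84.6, 66.9 and 63.2 in CD VEH, at 104, 51.0 and 70.0 in WT JZL184, and at 97.8, 87.4 and 119 in CD JZL184. The WT JZL184 mice spread over most of the range of the gene, with mouse A at the WT VEH level. None of the comparisons between groups called Ppargc1a, with log2 fold-changes of -0.55 (edgeR adjusted p = 0.0897, SE 0.23) in CD VEH versus WT VEH, 0.50 (edgeR adjusted p = 0.0800, SE 0.21) in CD JZL184 versus CD VEH and -0.48 (edgeR adjusted p = 0.133, SE 0.23) in WT JZL184 versus WT VEH. Without WT JZL184 mouse A the last value was -0.78 (edgeR adjusted p = 0.00745), and CD JZL184 versus WT JZL184 was then called too, with 0.74 (edgeR adjusted p = 0.00541).

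Ppargc1b was about as variable. It lay at 12.0 and 13.0 CPM in WT VEH, 10.9, 11.2 and 8.21 in CD VEH, 7.84, 9.02 and 11.6 in WT JZL184, and 14.8, 16.4 and 11.5 in CD JZL184. The CD groups did not overlap, and the lowest CD JZL184 mouse was level with the highest WT JZL184 mouse. Ppargc1b rose in CD JZL184 versus CD VEH by 0.50 on the log2 scale (edgeR adjusted p = 0.0335, SE 0.16) and was higher in CD JZL184 than in WT JZL184 by 0.58 (edgeR adjusted p = 0.0150, SE 0.16). The first of these calls was lost without CD VEH mouse A or E or without CD JZL184 mouse A or C (edgeR adjusted p = 0.0601 to 0.129), and the second without CD JZL184 mouse C (edgeR adjusted p = 0.0583).

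The RXR genes encode the obligate partners of the PPARs and had small fold-changes. Rxra was at 51.4 and 53.3 CPM in WT VEH, 45.2 to 49.6 in CD VEH, 43.9 to 52.1 in WT JZL184 and 52.4 to 57.3 in CD JZL184. It rose in CD JZL184 versus CD VEH, with a log2 fold-change of 0.23 (edgeR adjusted p = 0.0285, SE 0.07). Rxrg, the most muscle-restricted RXR, was at 54.8 and 55.1 CPM in WT VEH, 44.1 to 50.0 in CD VEH, 42.9 to 48.9 in WT JZL184 and 47.9 to 52.2 in CD JZL184. Both WT VEH mice were above all others for Rxrg, CD JZL184 included. It fell in CD VEH versus WT VEH (log2 fold-change -0.24, edgeR adjusted p = 0.0339, SE 0.07) and in WT JZL184 versus WT VEH (-0.25, edgeR adjusted p = 0.0279, SE 0.07). Each of these RXR calls was lost without a single mouse of the compared groups: Rxra in CD mice without CD VEH mouse A or E or CD JZL184 mouse C or E (edgeR adjusted p = 0.0789 to 0.0994), and Rxrg in CD VEH without either WT VEH mouse or CD VEH mouse A or E (edgeR adjusted p = 0.0871 to 0.139). The Rxrg call in WT JZL184 was lost without either WT VEH mouse or WT JZL184 mouse D (edgeR adjusted p = 0.0774 to 0.124).

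Counted together, 1 of the 10 genes (Pparg) rose and 4 (Ppara, Esrrb, Esrrg and Rxrg) fell in CD VEH versus WT VEH, where 15.0% of all tested genes rose and 15.4% fell. The median log2 fold-change of the 10 genes was -0.27, and that of all genes was 0.01. This count rests on the 2 WT VEH mice. With either left out, a single mouse stood in that group, and fewer of the 10 genes and fewer genes of the whole table were called. Without WT VEH mouse C the log2 fold-change of Ppara was -0.41, that of Pparg 0.60 and that of Esrrg -0.48. In CD JZL184 versus CD VEH, 5 genes rose (Ppara, Ppargc1b, Esrrb, Esrrg and Rxra) and 1 fell (Pparg), against 16.8% and 17.0% of all genes, with a median of 0.32 for the 10 genes and -0.00 for all. Ppara, Pparg, Esrrb and Esrrg were called there without any 1 of the 6 mice.

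In WT JZL184 versus WT VEH, 1 gene rose (Pparg) and 4 fell (Ppara, Esrrb, Esrrg and Rxrg), against 15.4% and 14.0% of all genes, and the median was -0.30 against -0.00. With either WT VEH mouse left out, fewer of these calls and fewer calls over all genes were left. Without WT JZL184 mouse D, Ppargc1b was called as well (log2 fold-change -0.57, edgeR adjusted p = 0.0418). In CD JZL184 versus WT JZL184, 6 genes were higher (Ppara, Ppard, Ppargc1b, Esrra, Esrrb and Esrrg) and 1 was lower (Pparg), against 18.2% and 20.1% of all genes, with a median of 0.38 against 0.00. The largest of these was Ppara, with a log2 fold-change of 1.01 (edgeR adjusted p = 0.000206, SE 0.11), a level 2.02 times that of WT JZL184. These comparisons share groups, so their values are not independent of each other, except that the 2 comparisons of JZL184 with vehicle share no mouse with each other, nor do the 2 comparisons of CD with WT within a treatment.

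**Figure D3:**
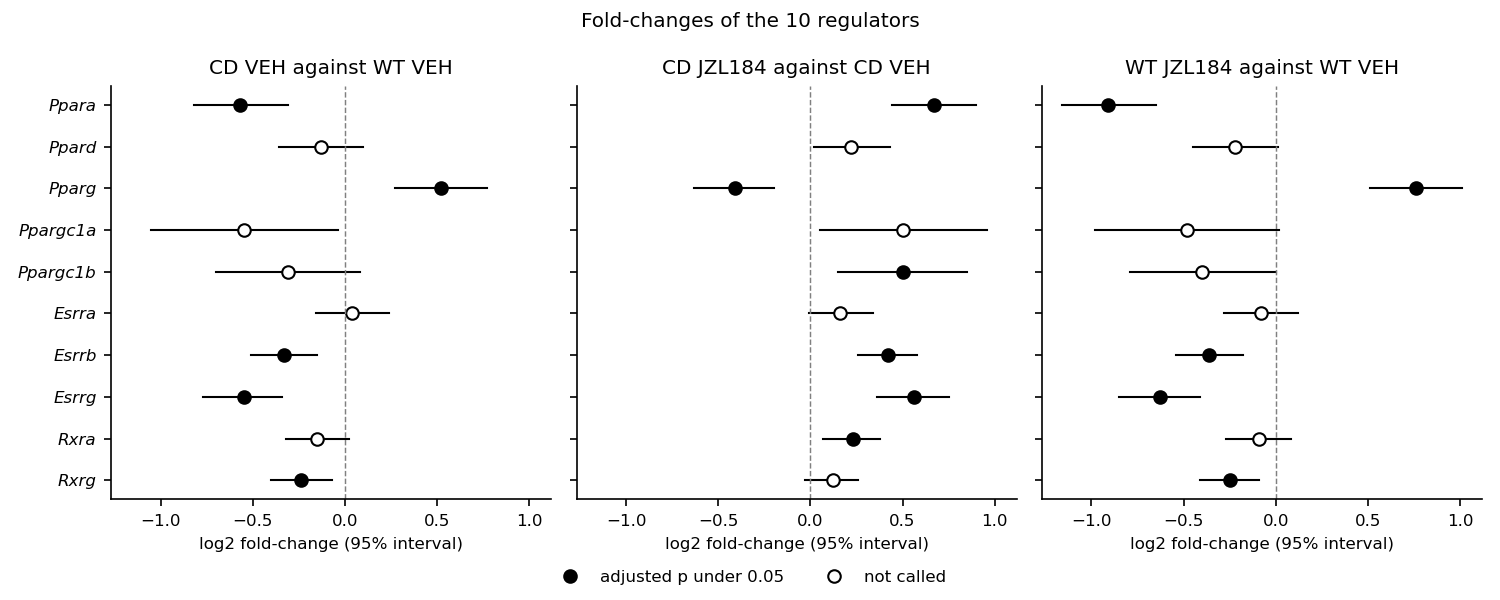
log2 fold-change (x axis, with 95% interval) of each regulator in 3 comparisons, where filled points are DEGs. Ppara, Esrrb and Esrrg lie below 0 in CD VEH versus WT VEH and in WT JZL184 versus WT VEH and above 0 in CD JZL184 versus CD VEH, and Pparg lies on the other side in each; the left and right panels share the 2 WT VEH mice.

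The JZL184 effect was compared between genotypes with the interaction contrast, which is the log2 fold-change in CD mice minus that in WT mice. It was above 0 for 8 genes and below 0 for Pparg, where 25.3% of all genes were called above 0 and 26.2% below. The difference was 1.58 for Ppara (edgeR adjusted p = 9.06e-05, SE 0.16), 1.19 for Esrrg (edgeR adjusted p = 0.000144, SE 0.13) and 0.78 for Esrrb (edgeR adjusted p = 0.000308, SE 0.11). For Pparg it was -1.18 (edgeR adjusted p = 0.000213, SE 0.15). The gene that was not called was Esrra, with 0.24 (95% interval -0.02 to 0.51, edgeR adjusted p = 0.113). Without WT VEH mouse C it was called as well, with 0.42 (edgeR adjusted p = 0.00800), and over all alternatives it lay between 0.05 and 0.42. The calls of Ppara, Pparg, Esrrb and Esrrg held without any 1 of the 11 mice. Those of Ppargc1a and Rxra were lost without either WT VEH mouse, and that of Ppard without WT VEH mouse D or with the exon length offset (edgeR adjusted p = 0.0707 and 0.0725). Rxra was also lost without CD VEH mouse E or CD JZL184 mouse C or E (edgeR adjusted p = 0.0526 to 0.0559).

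Between CD JZL184 and WT VEH, edgeR called 0 of the 10 genes, 1 of them (Esrra) had an unadjusted p under 0.05, and DESeq2 also called 0. Over all genes 0.0442% rose and 0.141% fell, so few genes of any kind were called. The log2 fold-changes ran from -0.12 (Rxrg) to 0.20 (Esrra). For Ppara the difference was 0.10 with a 95% interval of -0.15 to 0.36, for Pparg 0.10 (-0.14 to 0.35), for Esrrg 0.00 (-0.21 to 0.22) and for Ppargc1a -0.04 (-0.55 to 0.46). The interval of Ppargc1a was the widest of these 4.

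Transcript length moved with the fold-changes over the whole table, and the regulators are mid-length to long. In CD VEH versus WT VEH the median log2 fold-change was 0.22 for the 1259 tested genes with under 2 kb of exon, 0.06 for the 4805 genes of 2 to 5 kb and -0.09 for the 5184 genes over 5 kb. The same medians were -0.21, -0.04 and 0.08 in CD JZL184 versus CD VEH and 0.17, 0.04 and -0.09 in WT JZL184 versus WT VEH. The exons of the regulators add up to 2297 bases (Rxrg) to 7514 bases (Ppard), with 3836 for Ppara, 2953 for Pparg and 6208 for Esrrg. When exon length was fitted as an offset, Ppara had log2 fold-changes of -0.62, 0.71 and -0.96, Esrrg of -0.51, 0.52 and -0.61 and Pparg of 0.42, -0.33 and 0.67 in these 3 comparisons, all still called (edgeR adjusted p = 0.00116 to 0.0249). Rxrg, the shortest, moved most, to -0.37, 0.25 and -0.37, and was then called in CD JZL184 versus CD VEH as well (edgeR adjusted p = 0.0239). Leaving out the genes of the mitochondrial genome gave the same calls among the 10 genes in all 3 comparisons.

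DEGs among the partners and coregulators of these receptors lay on the same side as Ppara in the 3 main comparisons. Of 25 such genes, 0 rose and 9 fell in CD VEH versus WT VEH, 9 rose and 0 fell in CD JZL184 versus CD VEH, and 0 rose and 8 fell in WT JZL184 versus WT VEH, with medians of -0.17, 0.12 and -0.10. The called share was thus 36.0% down, 36.0% up and 32.0% down, where 15.4%, 16.8% and 14.0% of all tested genes were called in that direction and 15.0%, 17.0% and 15.4% in the other. Of the 25 coregulators, 16 have over 5 kb of exon, among them 7, 8 and 6 of the called ones, and genes of that length were called at 24.9% down, 26.9% up and 21.9% down over the whole table. With the exon length offset, 7 fell, 7 rose, and 1 rose and 7 fell in the 3 comparisons, where 13.0%, 15.3% and 14.4% of all genes were called in the direction of Ppara. The counts depended on single mice, since 2 coregulators were called in CD VEH versus WT VEH without WT VEH mouse C and 6 without WT VEH mouse D (1 of them up). In WT JZL184 versus WT VEH 1 was called without WT VEH mouse C and 3 without mouse D. In CD JZL184 versus CD VEH 5 were called without CD VEH mouse E. Lpin1, which encodes a phosphatidate phosphatase that also coactivates PPARα with PGC-1α, had log2 fold-changes of -0.58 (edgeR adjusted p = 0.00305, SE 0.09), 0.52 (edgeR adjusted p = 0.00235, SE 0.08) and -0.77 (edgeR adjusted p = 0.00107, SE 0.09). Ncoa1, a p160 coactivator of nuclear receptors, had -0.50, 0.56 and -0.49 (edgeR adjusted p = 0.00509, 0.00235 and 0.00539). The corepressor gene Ncor1, chosen after its values were seen, changed on the same side as the coactivators, with -0.30, 0.35 and -0.28, all called. Both genes named by rank are long, with 9665 bases of exon in Lpin1 and 8576 in Ncoa1.

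Targets of PPARs in fatty acid handling were called in the direction of Ppara about as often as genes of the whole table in the 3 main comparisons, and edgeR called none of them in the other direction with all mice and TMM factors. Of 32 listed genes, 30 were tested (not Cyp4a14 and Fgf21). Among them 0 rose and 6 fell in CD VEH versus WT VEH, 7 rose and 0 fell in CD JZL184 versus CD VEH, and 0 rose and 6 fell in WT JZL184 versus WT VEH, with medians of -0.08, 0.16 and -0.10. The share that rose in CD JZL184 versus CD VEH was 23.3%, beside 16.8% of all genes, and the 6 of 30 that fell in each of the other comparisons stand beside 15.4% and 14.0%. With either WT VEH mouse left out, a single mouse stood in that group. Fewer PPAR targets and fewer genes of the whole table were then called in CD VEH versus WT VEH and in WT JZL184 versus WT VEH. Without WT JZL184 mouse A, 1 target rose and 11 fell in WT JZL184 versus WT VEH, where 20.6% of all genes rose and 18.9% fell. DESeq2 called 2 up and 6 down there, and upper quartile factors gave 1 up and 6 down. Lpl, the lipase that frees fatty acids from circulating triglyceride, had log2 fold-changes of -0.48, 0.41 and -0.40 (edgeR adjusted p = 0.00652, 0.00631 and 0.0134). Cpt1b, the muscle form of the carnitine palmitoyltransferase that admits long-chain fatty acids to mitochondria, fell in WT JZL184 versus WT VEH by 0.46 on the log2 scale (edgeR adjusted p = 0.00369, SE 0.08). Vldlr, a receptor for triglyceride-rich lipoproteins, had -0.43 in CD VEH versus WT VEH (edgeR adjusted p = 0.0100).

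Other genes used as readouts of PPARα activity were not called in these comparisons and varied widely within every group but CD VEH. They were chosen after their values were seen. Pdk4, the kinase that shuts off pyruvate oxidation, had 405 and 1075 CPM in WT VEH and from 262 to 1237 in CD JZL184, with 623 to 863 in CD VEH and 399 to 1060 in WT JZL184. Its log2 fold-change in CD VEH versus WT VEH was -0.01 with a 95% interval of -1.23 to 1.21. Angptl4, an inhibitor of lipoprotein lipase, lay at 7.91 and 27.8 CPM in WT VEH, 17.1 to 25.4 in CD VEH, 14.7 to 40.2 in WT JZL184 and 6.85 to 47.4 in CD JZL184. Ucp3, a mitochondrial carrier, lay at 22.9 and 53.8, at 49.9 to 70.1, at 19.5 to 65.8 and at 18.2 to 86.7 CPM in the same order. The lowest and highest CD JZL184 mice were thus further apart in these 3 genes than the groups were in Ppara.

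Targets of ERRs and PGC-1 were called in both directions, in CD VEH versus WT VEH and in CD JZL184 versus CD VEH about as often as genes of the whole table. Of 32 genes, all tested, 4 rose and 4 fell in CD VEH versus WT VEH, 5 rose and 6 fell in CD JZL184 versus CD VEH, and 1 rose and 5 fell in WT JZL184 versus WT VEH, with medians of -0.05, 0.04 and -0.13. The share that rose was 12.5%, 15.6% and 3.12% (all genes 15.0%, 16.8% and 15.4%), and the share that fell was 12.5%, 18.8% and 15.6% (all genes 15.4%, 17.0% and 14.0%). With either WT VEH mouse left out, a single mouse stood in that group. Fewer ERR and PGC-1 targets and fewer genes of the whole table were then called in CD VEH versus WT VEH and in WT JZL184 versus WT VEH. Without WT JZL184 mouse A, 17 targets were called in WT JZL184 versus WT VEH, where 20.6% of all genes rose and 18.9% fell. Ogdh, of the tricarboxylic acid cycle, had log2 fold-changes of -0.42, 0.49 and -0.53 (edgeR adjusted p = 0.0165, 0.00508 and 0.00738). Mfn1, a mitochondrial fusion protein, had -0.39 in CD VEH and -0.42 in WT JZL184 versus WT VEH (edgeR adjusted p = 0.00879 and 0.00705), and its paralog Mfn2 had 0.36 in CD JZL184 versus CD VEH (edgeR adjusted p = 0.00464). Cox6c, a subunit of cytochrome c oxidase, ran the other way with 0.38, -0.50 and 0.28 (edgeR adjusted p = 0.0111, 0.00238 and 0.0336), as did Ndufa4 with -0.49 in CD JZL184 versus CD VEH (edgeR adjusted p = 0.00235). Tcap, a Z-disc protein, had 0.88 (edgeR adjusted p = 0.0498, SE 0.31) in CD VEH versus WT VEH. The 4 genes that rose there (Tcap, Ndufa4, Atp5o and Cox6c) have 948, 1381, 1972 and 3567 bases of exon, and the 4 that fell (Mfn2, Ogdh, Cs and Mfn1) have 5194, 5456, 5779 and 6114. With the length offset 5 of the 32 genes were called in that comparison in place of 8. In CD JZL184 versus WT JZL184, 7 coregulators were higher and 1 lower, 9 PPAR targets were higher and 1 lower, and 9 ERR targets were higher and 3 lower, where 18.2% of all genes were higher and 20.1% lower. No gene of the 3 lists was called between CD JZL184 and WT VEH by edgeR, where 1 coregulator and 0 genes of the other lists had an unadjusted p under 0.05.

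**Figure D4:**
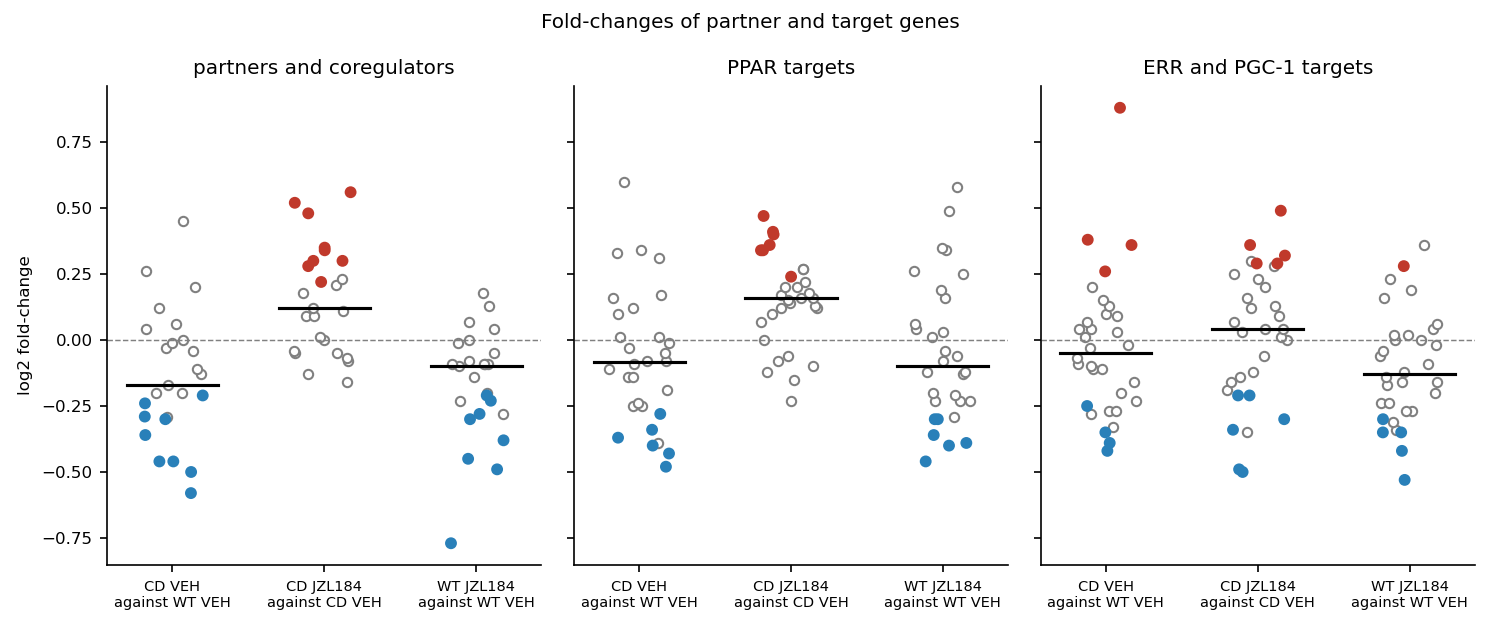
log2 fold-changes of the tested genes of 3 lists in 3 comparisons, with 1 point per gene, red for DEGs that rose, blue for DEGs that fell, open for genes not called, and a bar at the median. DEGs among the 25 coregulators and the 30 PPAR targets lie on 1 side of 0 in each comparison, whereas those among the 32 ERR and PGC-1 targets lie on both sides.

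The genes whose profile over the 11 mice was closest to each regulator were found by the root mean square (RMS) difference of centred log2 CPM, among 7579 genes with a mean of at least 10 CPM. For Ppara these were Strip2 (RMS 0.11) and Cmya5 (0.13), where the profile of Ppara itself had an RMS of 0.44. Pparg was closest to Ggta1 (0.07) and Tmem204 (0.09), Esrrg to Rap1gap2 and Asb15 (0.07 each) and Esrrb to Akap1 (0.03) and Mfn2 (0.05). Ppargc1a lay near Pfkfb2 and Myom2 (0.14 each) and Ppargc1b near Bcl9 (0.12) and Klhl38 (0.13). The regulators with the flattest profiles (an RMS of their own of 0.11 to 0.16) had neighbours at 0.03 to 0.06, namely Rxra (Zmiz2, 0.03, and Camta2, 0.04), Rxrg (Bfar and Etf1, 0.04 each), Ppard (Scrib, 0.05, and Furin, 0.06) and Esrra (Nomo1 and Keap1, 0.06 each). Mfn2 was the only one of these neighbours that also stood on a target list, that of ERRs and PGC-1.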

How the data were processed

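RNA from the hearts of 11 mice in 4 groups was measured. Estimated counts of every gene in every mouse, which the authors deposited without normalization, had been obtained by Salmon 0.7.2 quantification against Ensembl release 85 (GRCm38) followed by tximport 1.2.0. Columns without a group numbered 0. After rounding, a single edgeR 4.0.16 model of all 4 groups (R 4.3.3, limma 3.58.1) was fitted with TMM factors, and contrasts were tested by quasi-likelihood with robust estimation turned off. The average log2 CPM of a tested gene was 1 or more. The common biological coefficient of variation was 9.13%, and 3 counts corresponded to 0.0306 to 0.0435 CPM per mouse. In simulated data for CD VEH versus WT VEH (11290 genes, 200 changed), edgeR recovered 63.0% of changes of 0.5 and 99.0% of changes of 1 on the log2 scale, with 6.90% false calls. DESeq2 recovered 77.0% and 99.0%, with 14.6% false calls. Far fewer genes were changed than were called in the data, without a length trend, so these rates need not hold there. Exon lengths came from GENCODE release 21, which held 22315 of the 22608 identifiers (16147 in the same version), and promoters came from RefSeq (GRCm38.p6).

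The 10 genes, the gene lists and the marker lists were chosen with earlier results of these data known. Named list genes are the 2 lowest and 2 highest log2 fold-changes among the DEGs of a list in 3 comparisons, and neighbours are the 2 closest genes by RMS difference. A gene that this rule names is not reported here. Alternatives were DESeq2 1.42.0, RLE and upper quartile factors, 2 other filters, only the compared groups in the model, an exon length offset, no mitochondrial genes, the longest transcript as length, each mouse left out and, added after seeing the data, a block on the column letter.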

Additional observations from a re-analysis of the deposited data

Results flagged for a closer look

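For 9 of the 10 regulators the log2 fold-change of JZL184 in CD mice differed from that in WT mice by edgeR's interaction test, which is what marked them. The difference, CD minus WT, was 1.58 for Ppara, 1.19 for Esrrg, 0.98 for Ppargc1a, 0.89 for Ppargc1b and 0.78 for Esrrb. It was 0.44 for Ppard, 0.37 for Rxrg, 0.32 for Rxra and -1.18 for Pparg. Such differences were common in the table, since 25.3% of all tested genes were called above 0 and 26.2% below.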

How the results depend on the processing

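The columns of the count table carry letters, which the sample labels do not give, and only CD JZL184 and CD VEH share more than 1 letter (A, C and E). Mice of these groups with the same letter did not deviate together (correlations of 0.04, -0.10 and -0.00 over genes). With the letter as a replicate block, an alternative chosen after seeing the data, 8 regulators, 10 coregulators, 8 PPAR targets and 11 ERR targets were called in CD JZL184 versus CD VEH (6, 9, 7 and 11 without the block), where Ppard (edgeR adjusted p = 0.0317) and Ppargc1a (edgeR adjusted p = 0.0181) became called. Of 860 alternative values for single regulators, 797 kept their direction and their side of the threshold, 44 were no longer called, 12 became called and 7 turned sign. None of these 7 was called: Esrra in CD VEH versus WT VEH without WT VEH mouse C (-0.14) or CD VEH mouse C (-0.01), where the values with single mice left out reached 0.24, Esrra in WT JZL184 versus WT VEH without WT VEH mouse D (0.12; lowest -0.25), and, in CD JZL184 versus WT VEH, Ppara (-0.04, highest 0.26) and Esrrg (-0.06, highest 0.07) without WT VEH mouse D, Esrrg without CD JZL184 mouse A (-0.03) and Ppargc1a without CD JZL184 mouse C (0.05, lowest -0.17). With single mice left out, the number of regulators called lay between 0 and 5 in CD VEH versus WT VEH and between 3 and 6 in WT JZL184 versus WT VEH. For the coregulators the ranges were 2 to 9 in CD VEH versus WT VEH, 5 to 9 in CD JZL184 versus CD VEH, 1 to 9 in WT JZL184 versus WT VEH and 5 to 10 in CD JZL184 versus WT JZL184. For the PPAR targets they were 0 to 8 in CD VEH versus WT VEH, 1 to 12 in WT JZL184 versus WT VEH and 5 to 14 in CD JZL184 versus WT JZL184. For the ERR and PGC-1 targets they were 0 to 9, 5 to 11, 1 to 17 and 6 to 21 in CD VEH versus WT VEH, CD JZL184 versus CD VEH, WT JZL184 versus WT VEH and CD JZL184 versus WT JZL184; the highest WT JZL184 counts (12, 17 and 21) came without WT JZL184 mouse A. Without that mouse, 20.6% of all genes rose and 18.9% fell in WT JZL184 versus WT VEH (15.4% and 14.0% with all mice). In CD JZL184 versus WT JZL184 20.5% were then higher and 22.4% lower (18.2% and 20.1% with all mice). When the model held just the groups being compared, 18 ERR targets were called in CD JZL184 versus CD VEH (11 with all groups). In WT JZL184 versus WT VEH 3 coregulators, 2 PPAR targets and 1 ERR target were then called (8, 6 and 6 with all groups). Over all genes this model called 20.2% up and 21.2% down in CD JZL184 versus CD VEH (16.8% and 17.0% with all groups). In WT JZL184 versus WT VEH it called 9.72% up and 4.89% down (15.4% and 14.0%). In that setting Ppargc1a was called in CD VEH versus WT VEH (edgeR adjusted p = 0.0107) and CD JZL184 versus CD VEH (edgeR adjusted p = 0.0184). Esrra was then called in CD JZL184 versus CD VEH too, with a log2 fold-change of 0.16 (edgeR adjusted p = 0.0310). The exon length offset gave 5 ERR targets in CD VEH versus WT VEH and 11 PPAR targets in CD JZL184 versus CD VEH, and DESeq2 gave 10 ERR targets in WT JZL184 versus WT VEH. The cause was not tested. Upper quartile factors moved the split of all calls in CD VEH versus WT VEH from 1694 up and 1746 down to 2154 and 1347, with a median shift of 0.04 on the log2 scale, and Rxrg (edgeR adjusted p = 0.0646) was then not called. These factors also ended the calls of Rxra in CD JZL184 versus CD VEH (edgeR adjusted p = 0.0511), of Rxrg in WT JZL184 versus WT VEH (0.0510) and of Rxra in the interaction (0.0686). Rxrg was further lost in CD VEH versus WT VEH with no filter on low counts (0.0629) and in WT JZL184 versus WT VEH with just the compared groups in the model (0.110).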
